A study of Mus musculus with 8 samples.

Results

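Tip link and mechanotransduction genes are 9 genes of the hair bundle, chosen by name: Cdh23, Pcdh15, Tmc1, Tmc2, Lhfpl5, Ush1c, Whrn, Clrn1 and Adgrv1. All 9 were on the array, with 18 of its 45101 probe sets, and 8 of the 9 passed the filter on low signals, out of 13221 genes that did. RNA of the organ of Corti, where the cochlea's hair cells sit, was hybridised to 8 Affymetrix arrays when the mice were 16 days old. All mice carried the Atoh1-Cre transgene, Tg(Atoh1-cre)1Bfri, whose Cre is driven by the hair cell gene Atoh1, so the controls carried Cre too. The conditional knockout (cKO) was Atoh1-Cre;Dicer1(flox/flox), and the littermate control Atoh1-Cre;Dicer1(flox/wt), with 1 floxed and 1 wild-type allele of Dicer1. Each sample pooled the apical or the basal part of both cochleae of 1 mouse. The 4 groups, control apex, control base, cKO apex and cKO base, held 2 samples each.

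Hair cells turn sound into current through a bundle of stereocilia. A fine extracellular filament, the tip link, joins each stereocilium to its taller neighbour and pulls on the transduction channel when the bundle is deflected. The upper part of the tip link is cadherin 23 (Cdh23) and the lower part protocadherin 15 (Pcdh15). Lhfpl5 couples Pcdh15 to the channel, whose pore is formed by Tmc1 and Tmc2; in the cochlea Tmc2 is expressed early and gives way to Tmc1. Harmonin (Ush1c) anchors Cdh23 in the stereocilium, while whirlin (Whrn) and the very large receptor Adgrv1 belong to the links at the base of young bundles. Clarin 1 (Clrn1) is a membrane protein that bundles need to stay in shape, and most of these genes are mutated in Usher syndrome or other inherited deafness.

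Dicer1 cuts microRNA precursors into mature microRNAs. The main microRNAs of hair cells are the miR-183 family, shown here because their maturation is what the cKO is designed to block; the arrays used here gave no microRNA values. The seed, bases 2 to 8, is in capitals, and the sequences are those of RefSeq (GRCm38.p6).
mmu-miR-96-5p: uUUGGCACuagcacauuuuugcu
mmu-miR-182-5p: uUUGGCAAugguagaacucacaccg
mmu-miR-183-5p: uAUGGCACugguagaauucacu
No pair of the 3 shares a seed of these 7 bases.

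The base composition of these genes' promoters varied. RefSeq (GRCm38.p6) gave the 250 bases before a start site for 8 of the 9 genes. Pcdh15, a tip link cadherin, and Ush1c, which encodes the scaffold harmonin, are shown. Matches to CANNTG (the E-box, bound by Atoh1 and other bHLH factors) and TATAAA (the TATA box) on either strand are in capitals.
Pcdh15, chr10:73821617-73821866, plus strand: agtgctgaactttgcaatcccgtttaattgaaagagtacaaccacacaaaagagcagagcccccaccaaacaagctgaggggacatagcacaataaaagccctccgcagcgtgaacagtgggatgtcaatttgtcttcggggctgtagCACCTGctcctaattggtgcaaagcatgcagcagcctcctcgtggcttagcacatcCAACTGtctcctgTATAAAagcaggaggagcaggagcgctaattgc
Ush1c, chr7:46238491-46238740, minus strand: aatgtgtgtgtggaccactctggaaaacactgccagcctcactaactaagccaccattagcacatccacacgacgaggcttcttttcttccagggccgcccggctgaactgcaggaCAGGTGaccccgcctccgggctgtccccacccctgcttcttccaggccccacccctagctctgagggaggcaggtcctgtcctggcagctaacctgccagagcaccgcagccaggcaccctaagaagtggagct
The Pcdh15 window held a TATA box whose first base is at -33 from the start site, and E-boxes CACCTG at -102 and CAACTG at -46. The Ush1c window held an E-box CAGGTG at -134 and no TATA box. Of the 8 windows, 7 held an E-box and 1 a TATA box, where 66.2% and 12.4% of 32851 RefSeq windows of this length did. None of the 8 held AAATCA, a site of the hair cell repressor Gfi1 (12.4% of windows), or TAATTA, a homeodomain site (4.84%). GC content was 70.8% for Lhfpl5, with 24 CpG, and 41.2% for Tmc1, with 1 CpG, against a median of 52.4% over all windows. A match is a description of letters, and no binding was measured.

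Signals are MAS5 intensities scaled to a trimmed mean of 500 per array, and a signal under 38.71 (log2 5.274, the filter) was treated as low. A probe set's level cannot be set against that of another gene, so each gene is compared only with itself. Differences are on the log2 scale with the standard error of limma's moderated fit, and p-values were adjusted over all genes tested with a threshold of 0.05. The labelled tissue was present in all samples: the hair cell myosin Myo7a had a log2 signal of 7.68 to 9.17 and the supporting cell factor Sox2 of 9.30 to 10.99. The outer hair cell motor gene Slc26a5 and the hair cell factor Atoh1 had mean signals under the filter. The control base samples stood apart from each other, correlating across genes at r = 0.9279, against 0.9615 to 0.9779 within the other groups. Replicate 1 had a summed signal over 13 stria vascularis genes of 20230, against 54320 in replicate 2 and 49900 to 56750 in cKO base. Replicate 2 had a summed signal over 12 neuronal genes of 28050, against 81330 in replicate 1 and 44090 to 69650 in the other samples, and its correlations with the 4 apical arrays were 0.9254 to 0.9507, against 0.9553 to 0.968 for replicate 1. Control base replicate 1 and control apex replicate 1 also had a log2 signal of Xist, the transcript of the inactive X chromosome, of 12.39 and 12.54, against at most 8.23 elsewhere.

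**Figure D1:**
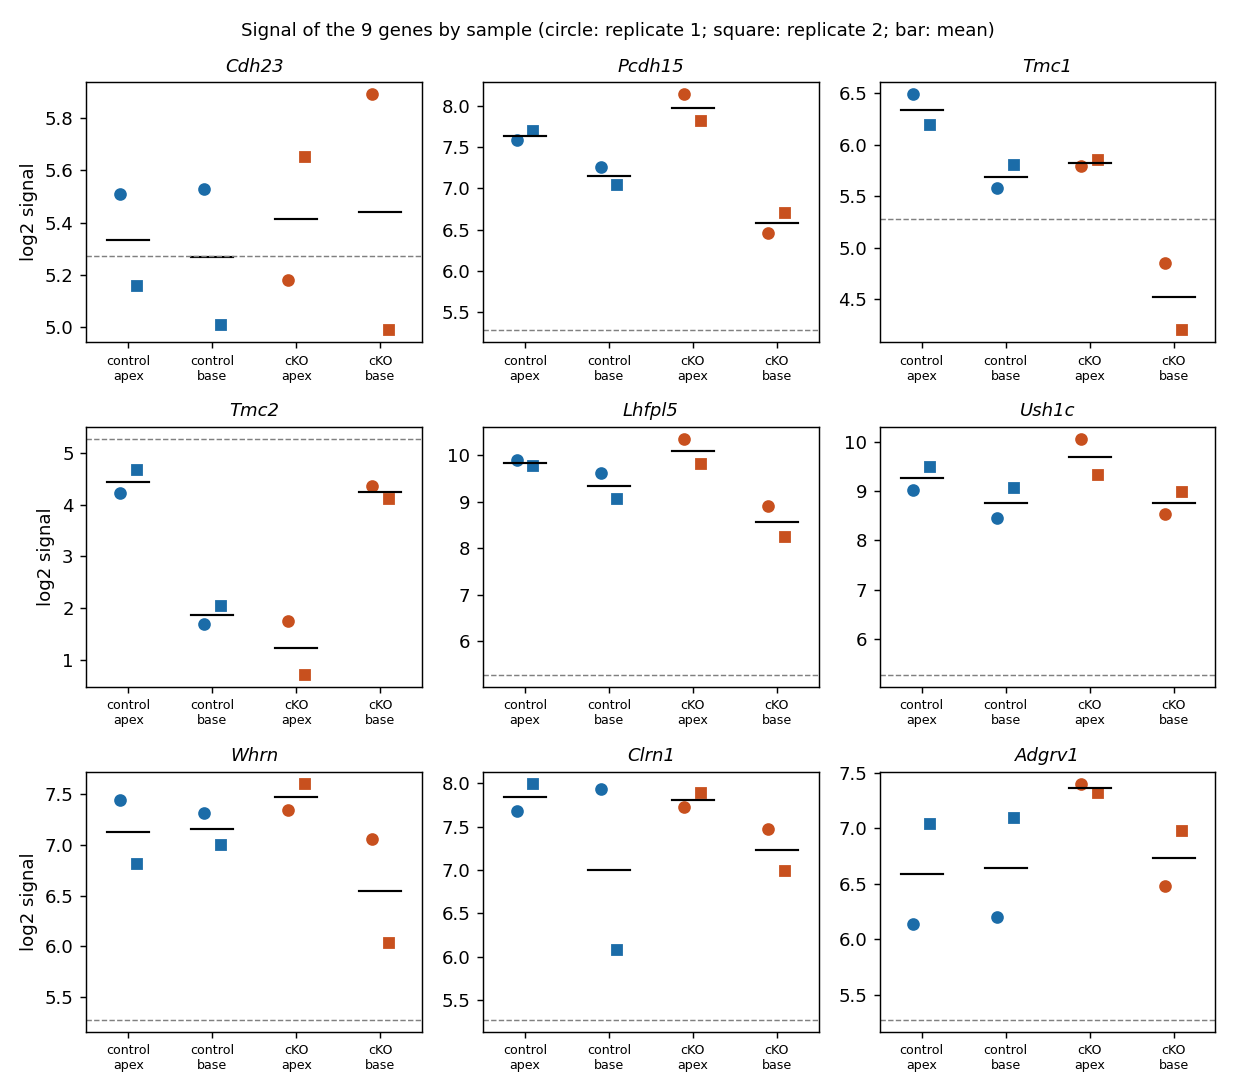
Log2 MAS5 signal (vertical axes, which differ between panels) of each of the 9 genes in control apex, control base, cKO apex and cKO base. Circles are replicate 1, squares replicate 2 and bars group means; the dashed line is the filter at 5.274. Pcdh15, Tmc1 and Lhfpl5 were lowest in both cKO basal samples, and all 8 samples of Tmc2 lay under the filter.

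Between base and apex over both genotypes, Pcdh15, Lhfpl5 and Tmc1 gave, as measured, the differences furthest below 0 among the 8 genes tested. None passed the test. Over both genotypes the base minus apex difference was -0.95 ± 0.18 for Pcdh15, -1.0 ± 0.22 for Lhfpl5 and -0.97 ± 0.28 for Tmc1, which is 1.93-fold, 2-fold and at least 1.51-fold less. Harmonin gave -0.72 ± 0.24 and clarin 1 -0.71 ± 0.39. With values under the filter raised to it, Tmc1 gave -0.6, a smaller difference than either. After adjustment 0 of 8 genes were past the threshold (where 1.19% of all genes passed), and Pcdh15 and Lhfpl5 came closest (adjusted p = 0.0551 and 0.0774, limma). In bulk samples, fewer hair cells, less RNA per hair cell and a larger share of strial or other tissue cannot be told apart.

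Pcdh15, the lower part of the tip link, was read from the probe set 1444317_at. Its signal was 193 and 208 in control apex, 153 and 132 in control base, 284 and 227 in cKO apex, and 88.1 and 104 in cKO base. Every basal sample lay under every apical one, and the cKO samples held both the highest and the lowest values. The difference from apex to base was -0.33 and -0.65 in the control mice and -1.69 and -1.13 in the cKO mice, taking samples of a genotype with the same replicate number as 1 mouse. In the fit it was -0.49 ± 0.25 in controls (adjusted p = 0.686) and -1.41 ± 0.25 in cKO (adjusted p = 0.107). With the mouse as a random block, the difference over both genotypes passed (adjusted p = 0.0266), and with the mouse as a fixed block it did not (adjusted p = 0.0667). The other probe sets of Pcdh15, 1421503_at and 1442326_at, had means under the filter, and each exceeded it in 2 of 8 samples. Fitted without a filter, their base minus apex differences over both genotypes were -1.15 ± 0.95 and -2.59 ± 1.41. Their cKO minus control differences in the base were 1.58 ± 1.34 and -0.17 ± 2.0, so they did not repeat the lower cKO base.

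Lhfpl5, the tetraspan partner of Pcdh15 in the channel complex, had a single probe set, 1429266_at. It gave 960 and 865 in control apex, 791 and 534 in control base, 1310 and 904 in cKO apex, and 478 and 303 in cKO base. Here too no basal sample reached an apical one, and cKO base was lowest. Base minus apex was -0.49 ± 0.31 in controls (adjusted p = 0.737) and -1.52 ± 0.31 in cKO (adjusted p = 0.138). With the mouse as a fixed or as a random block the difference over both genotypes passed (adjusted p = 0.0318 and 0.0297).

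Tmc1, the pore subunit of the mature channel, had signals of 90.1 and 72.9 in control apex, 47.8 and 55.6 in control base, 55.3 and 57.5 in cKO apex, and 28.8 and 18.3 in cKO base (1421626_at). Within each genotype the base was below the apex in both mice, but control base replicate 2 lay above cKO apex replicate 1, so apex and base overlapped over both genotypes. Base minus apex was -0.65 ± 0.39 in controls and -1.30 ± 0.39 in cKO, and since both cKO basal samples lay under the filter, the latter is at least 1.46-fold. The second probe set, 1430818_at, had a mean under the filter and exceeded it in 2 of 8 samples, with 122 and 31.9 in control apex, 6.35 and 15.6 in control base, 30.7 and 48.9 in cKO apex, and 24.6 and 17.3 in cKO base. It was also lower in the base of both genotypes, but in the base both cKO values lay above both control values. The third, 1421625_a_at, was under the filter in all 8 samples.

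Tmc2, the pore subunit of immature hair cells, was under the filter in every sample. Its signals were 18.6 and 25.6 in control apex, 3.21 and 4.11 in control base, 3.34 and 1.62 in cKO apex, and 20.7 and 17.2 in cKO base. Control apex and cKO base were thus the higher groups, but with no detection call and no value at the filter no fold is given. Fitted without a filter, Tmc2 passed in no comparison (adjusted p from 0.231 to 1).

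Cdh23, the upper part of the tip link, lay close to the filter and showed no ordering of groups. The probe set 1432346_a_at gave 45.5 and 35.6 in control apex, 46.3 and 32.2 in control base, 36.3 and 50.2 in cKO apex, and 59.3 and 31.7 in cKO base. The 4 groups overlapped, and base minus apex was -0.06 ± 0.48 in controls and 0.03 ± 0.48 in cKO. With standard errors this large beside such differences, these arrays did not resolve changes of Cdh23. Its second probe set, 1452028_a_at, exceeded the filter in 1 of 8 samples.

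Ush1c encodes harmonin, the scaffold that anchors Cdh23. Its signals were 517 and 718 in control apex, 350 and 531 in control base, 1060 and 643 in cKO apex, and 371 and 506 in cKO base (1450001_a_at). In the cKO the base was below the apex in both mice, while the control groups overlapped, with control base replicate 2 above control apex replicate 1. Base minus apex was -0.50 ± 0.34 in controls (adjusted p = 0.748) and -0.93 ± 0.34 in cKO (adjusted p = 0.366).

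The genes of the Usher links gave smaller or less even differences. Whirlin (1432555_at) had signals of 173 and 112 in control apex, 159 and 128 in control base, 162 and 194 in cKO apex, and 134 and 65.5 in cKO base. Base minus apex was 0.03 ± 0.40 in controls and -0.92 ± 0.40 in cKO (adjusted p = 0.453), where cKO base replicate 2 was the lowest of the 8. The other 3 probe sets of Whrn had means under the filter. Adgrv1, the receptor with the long ectodomain of these links, gave 70.6 and 132 in control apex, 73.7 and 137 in control base, 168 and 159 in cKO apex, and 89.1 and 127 in cKO base (1425314_at). In controls its level followed the replicate number and not the region, with replicate 1 low in both. Base minus apex was 0.06 ± 0.43 in controls and -0.62 ± 0.43 in cKO (adjusted p = 0.660). The second probe set of Adgrv1, 1421693_a_at, had a mean under the filter and exceeded it in 1 of 8 samples.

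Clarin 1 (1438347_at) had signals of 205 and 255 in control apex, 245 and 67.4 in control base, 212 and 238 in cKO apex, and 177 and 127 in cKO base. The control difference was -0.83 ± 0.55 (adjusted p = 0.742). It was 0.10 without control base replicate 2, the lowest sample. Without control base replicate 1 it was -1.76 (adjusted p = 0.0325), in a fit where 4.17% of all genes passed and that lone basal control was assumed to vary like the other groups. Control base replicate 2 also had the lowest summed signal over the 12 neuronal genes. Its log2 signal was 7.30 for Scn1a, against 8.53 to 9.95 in the others, and 11.13 for Nefm, against 12.17 to 13.13. Gap43 (6.76), Syt1 (8.27) and Prph (5.47), of the same list, were not at their lowest in that sample. The part of the neuronal genes in the Clrn1 values was not tested. In the cKO the Clrn1 difference was -0.58 ± 0.55 (adjusted p = 0.765).

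As a set, the difference over both genotypes was below 0 for 8 of the 8 genes tested, with a median of -0.71, against 52.6% and -0.02 for all genes. In the cKO 7 of 8 were below 0 (52.9% of all genes) with a median of -0.93, and in controls 6 of 8 (52.2%) with a median of -0.49. Basal and apical samples did not overlap, with the base lower, for 7 of 8 genes in the cKO (25.6% of all genes), 3 of 8 in controls (16.9%) and 2 of 8 over both genotypes (6.4%). An unadjusted p under 0.05 with the base lower was found for 4 of 8 genes over both genotypes (8.54% of all genes) and 4 of 8 in the cKO (5.66%), in both cases Pcdh15, Lhfpl5, Tmc1 and Ush1c. After adjustment 0 of 8 passed in controls (0% of all genes) and 0 of 8 in the cKO (0.0832%). With the mouse as a random block 2 of the 8 passed over both genotypes (3.99% of all genes), and as a fixed block 1 (1.93%). Without control base replicate 1, 3 of the 8 passed over both genotypes: Pcdh15 (-1.0, adjusted p = 0.0207), Lhfpl5 (-1.14, adjusted p = 0.0163) and Clrn1 (-1.17, adjusted p = 0.0159). In that fit 11.5% of all genes passed, and the spread of the 1 remaining basal control was taken from the other groups. Across all alternatives the adjusted p of Pcdh15 over both genotypes ran from 0.0207 to 0.218 and that of Lhfpl5 from 0.0163 to 0.257.

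**Figure D2:**
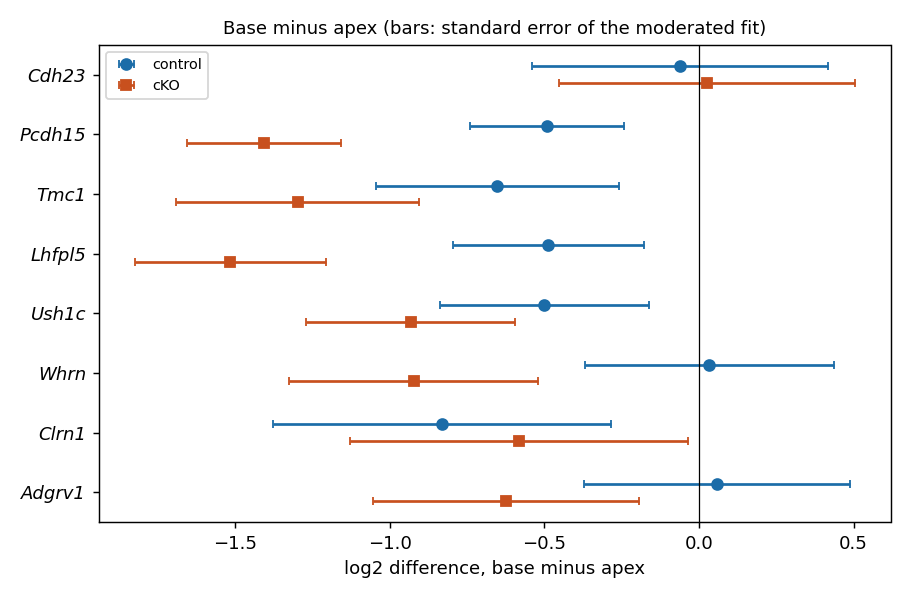
Base minus apex difference in log2 signal (horizontal axis) of the 8 genes tested, in control (circles) and cKO (squares); bars are the standard error. The cKO values of Pcdh15, Tmc1 and Lhfpl5 lie between -1.52 and -1.30 and those of the controls between -0.65 and -0.49, while Cdh23 lies near 0 in both.

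Other genes of hair cells and of neighbouring tissue differed between base and apex in the same samples. Over both genotypes 1.19% of all genes passed in either direction and 52.6% were below 0, the shares to set beside each count below. Of 34 partner genes of the hair bundle, 24 had a probe set of their own and 22 were tested, and 3 fell in the base over both genotypes. These were the stereocilin gene Strc, whose product joins stereocilia tops and the tectorial membrane (at least 6.46-fold, adjusted p = 0.0230), plastin 1 (Pls1), an actin bundler (-0.93 ± 0.14, adjusted p = 0.0347), and fascin 2 (Fscn2), another bundler (at least 2.45-fold, adjusted p = 0.0485). The median of the 22 was -0.25, and 15 were below 0 (median -0.02 and 52.6% for all genes). The actin regulator Eps8l2 had the smallest p among those above 0 (0.65 ± 0.16, adjusted p = 0.109). These 3 calls were lost without either cKO apex sample, either control apex sample or cKO base replicate 1. Those of Pls1 and Fscn2 were also lost without cKO base replicate 2, and that of Pls1 without the intensity trend. The Fscn2 call was absent with no filter, the 60th percentile filter, quantile normalization or every probe set tested. It was also absent with the mouse or the replicate number as a fixed block. Of 24 hair cell soma genes 16 were tested, and 5 fell in the base (Strip2, Smpx, Gfi1, Calb1 and Chrna9), where 1.19% of all genes passed. Of these genes 16 of 16 were below 0 (52.6% of all genes), and the median was -1.29. Supporting cell genes had a median of -0.21 over 17 tested, and 3 fell (Jag1, Sox2 and Otog). Leaving out any 1 cKO sample removed all soma and all supporting cell calls. Leaving out either control apex sample removed all supporting cell calls and some of the soma calls. Calb1, Chrna9, Jag1 and Otog were also not called under some processing choices. Stria vascularis genes had a median of 1.91 over 11 tested, and 0 passed. Bone genes had a median of 0.78 over 8 tested, and 2 rose. Neuronal genes had a median of -0.35, myelin genes of -0.18 and fibrocyte genes of 0.19, with 0 past the threshold in each. The part of hair cell number and of strial tissue in the differences of the tip link genes was not tested.

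The summed signal of the hair cell soma genes, 19 with a probe set, was 32760 to 34800 in control apex and 18650 to 38780 in control base. In the cKO it was 34880 to 35140 in the apex and 23780 to 32570 in the base. A sum weighs strong genes most, among them Calb2, which is also counted among the neuronal genes. The mean log2 signal of the same 19 genes was 8.55 and 8.97 in control apex, and 7.72 and 7.68 in control base. In the cKO this mean was 8.96 and 8.86 in the apex, and 7.11 and 7.36 in the base. The summed signal of the 13 stria genes was 22400 to 27790 in control apex and 22190 to 24170 in cKO apex. Across the 8 samples the log2 signal of Pcdh15 correlated with the mean log2 signal of the soma genes at r = 0.96, that of Lhfpl5 at 0.845 and that of Tmc1 at 0.752. For Ush1c r was 0.793, for Clrn1 0.535, for Whrn 0.486, for Adgrv1 0.414 and for Cdh23 -0.123. With the mean log2 signal of the stria genes, r was -0.798 for Pcdh15, -0.789 for Lhfpl5, -0.727 for Clrn1 and -0.55 for Tmc1. It was -0.44 for Whrn, -0.423 for Ush1c, -0.0904 for Adgrv1 and 0.0275 for Cdh23. These describe 8 samples from 4 presumed mice, which share the step from apex to base, and are not tests.

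**Figure D3:**
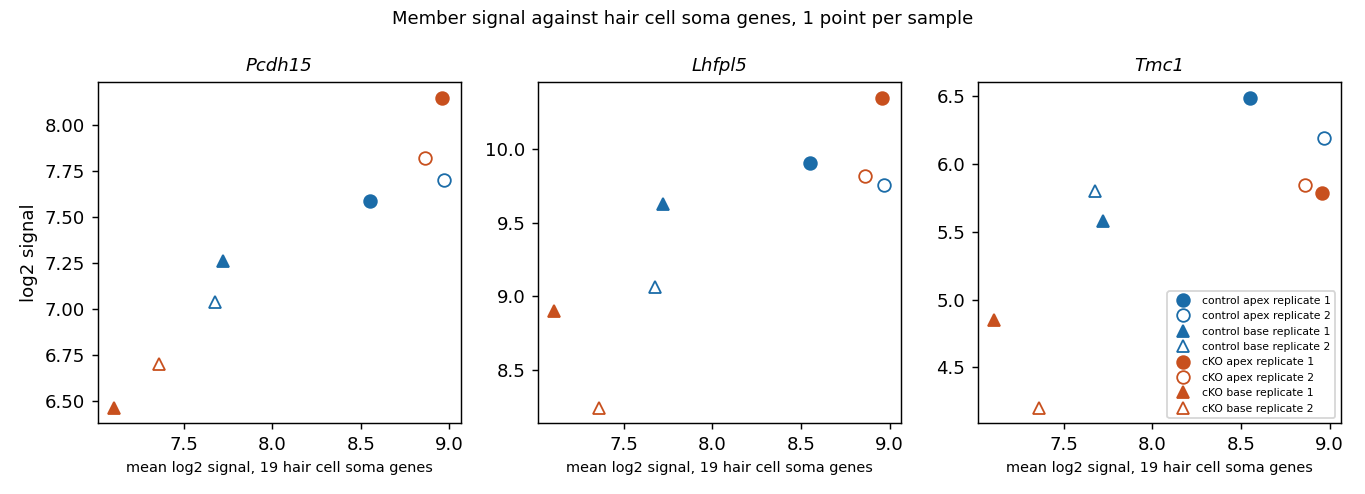
Log2 signal of Pcdh15, Lhfpl5 and Tmc1 (vertical axes) against the mean log2 signal of 19 hair cell soma genes (horizontal axis), 1 point per sample; blue is control, orange cKO, circles apex, triangles base, filled symbols replicate 1. The cKO basal samples have the lowest mean of the soma genes (7.11 and 7.36) and the lowest signals of all 3 genes.

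The design sets mice labelled as lacking Dicer1 in hair cells against littermates. Dicer1 itself did not separate the genotypes on these arrays, with log2 signals of 9.57 and 9.19 in control apex, 9.41 and 9.17 in cKO apex, 9.36 and 9.04 in control base, and 9.30 and 9.06 in cKO base. Whether its probe set lies in the deleted part is not given in the sources used here, so the samples are called cKO by their labels alone. In the base, Tmc1 and Lhfpl5 gave, as measured, the cKO minus control differences furthest below 0 among the 8 genes tested. Tmc1 was at least 1.33-fold lower than in controls (-1.17 ± 0.39 as measured) and Lhfpl5 1.71-fold lower (-0.77 ± 0.31). The second Tmc1 probe set, 1430818_at, under the filter in every basal sample, went the opposite way (1.05 ± 0.80, fitted without a filter). Pcdh15 gave -0.57 ± 0.25 and Whrn -0.61 ± 0.40. Ush1c (0.01 ± 0.34), Adgrv1 (0.08 ± 0.43), Cdh23 (0.17 ± 0.48) and Clrn1 (0.23 ± 0.55) lay near 0. None passed after adjustment (0 of 8, with 0% of all genes past the threshold and adjusted p = 1 for all 8 in limma). An unadjusted p under 0.05 was found for Tmc1 and Lhfpl5, 2 of 8, against 1.48% of all genes on the lower side. The cKO samples lay below both controls for 3 of 8 genes, Tmc1, Lhfpl5 and Pcdh15 (15.6% of all genes).

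In the same basal samples the hair cell soma genes had a median of -0.42 over 16 tested and the bundle partners of -0.02 over 22, of which 0 passed. Fscn2 (at least 1.85-fold) and Strc (at least 2.44-fold) were lower, each with an unadjusted p under 0.05 and an adjusted p of 1. Tmie, a subunit of the transduction channel complex, gave 0.63 ± 0.30, and the bundler Espn had a control mean under the filter and was at least 1.31-fold higher. Stria genes had a median of 1.48 over 11 tested. Whether any of these account for the values of Tmc1, Lhfpl5 and Pcdh15 was not tested.

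In the apex, Tmc1 gave the lowest difference of the 8 genes tested (-0.52 ± 0.39). Tmc2, under the filter throughout, had signals of 3.34 and 1.62 in the cKO against 18.6 and 25.6 in controls. Adgrv1 was 1.7-fold higher in the cKO (0.77 ± 0.43), a difference that ran from 0.32 to 1.21 with samples left out in turn. Its control apex signals were 70.6 in replicate 1 and 132 in replicate 2, against 168 and 159 in the cKO. Ush1c gave 0.44 ± 0.34, Whrn 0.35 ± 0.40, Pcdh15 0.34 ± 0.25 and Lhfpl5 0.26 ± 0.31. Cdh23 (0.08 ± 0.48) and Clrn1 (-0.02 ± 0.55) lay near 0, and the sign of Clrn1 turned with quantile normalization. Both cKO samples exceeded both controls for Adgrv1 and Pcdh15 (2 of 8, against 15% of all genes) and lay below them for Tmc1 (1 of 8, against 16.2%). After adjustment 0 of 8 passed, where 0% of all genes did. The median was 0.30, against 0.16 for hair cell soma genes, 0.06 for the bundle partners and 0.00 for all genes.

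With apex and base averaged per mouse, the cKO minus control difference of Tmc1 was -0.85 ± 0.30 (adjusted p = 0.999, limma), as measured, with its cKO basal values under the filter. It was 1 of 8 genes with an unadjusted p under 0.05 on the lower side (1.08% of all genes), and 0 of 8 passed after adjustment (0% of all genes). The other 7 gave from -0.26 ± 0.26 (Lhfpl5) to 0.42 ± 0.36 (Adgrv1). The second Tmc1 probe set, 1430818_at, gave 0.18 ± 0.44 when fitted without a filter.

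**Figure D4:**
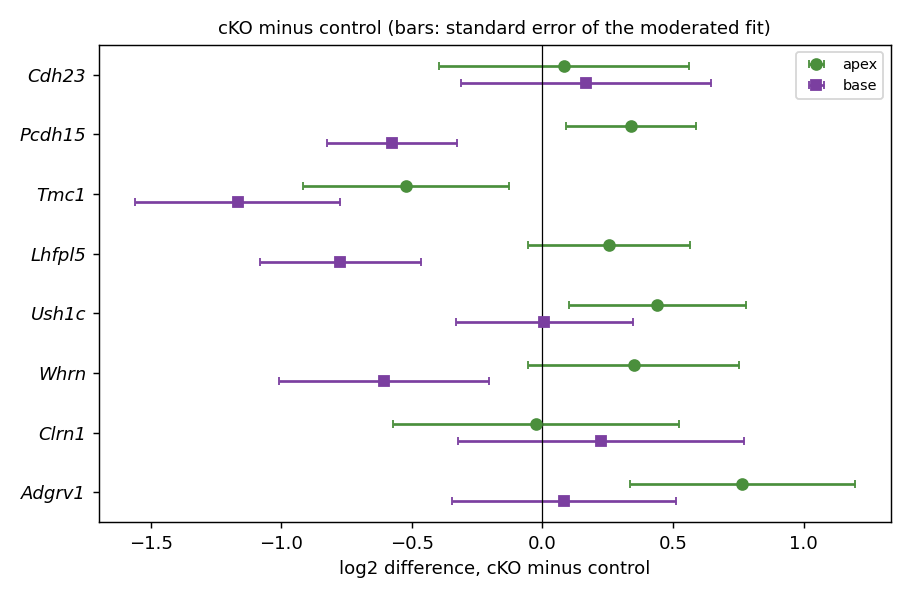
cKO minus control difference in log2 signal (horizontal axis) of the 8 genes tested, in the apex (circles) and the base (squares); bars are the standard error. Pcdh15, Lhfpl5 and Whrn lie above 0 in the apex and below 0 in the base, and Tmc1 lies below 0 in both.

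Whether the genotype difference itself differed between base and apex was tested directly. Lhfpl5 gave -1.03 ± 0.44 and Pcdh15 -0.91 ± 0.35, which are equally the amount by which the step from apex to base was larger in the cKO. These were 2 of 8 genes with an unadjusted p under 0.05 on the lower side, against 0.575% of all genes, and 0 of 8 passed after adjustment (adjusted p = 1 for both in limma, 0% of all genes). Whrn gave -0.96 ± 0.57, Adgrv1 -0.68 ± 0.61, Ush1c -0.43 ± 0.48, Clrn1 0.25 ± 0.77 and Cdh23 0.09 ± 0.68. For Tmc1 it was -0.65 ± 0.56 as measured and 0.11 with values under the filter raised to it, so its sign is not settled. The same difference had a median of -0.66 over the 8 genes, -0.55 over the hair cell soma genes, -0.08 over the bundle partners and 0.00 over all genes. Because the comparisons between genotypes and between regions share samples, these values are not independent of those above.

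Among themselves, Pcdh15 and Lhfpl5 had the most alike patterns of the 28 pairs of tested genes (r = 0.908 over the 8 samples), followed by Tmc1 and Lhfpl5 (0.824) and Lhfpl5 and Whrn (0.796). Cdh23 had r from -0.49 (with Adgrv1) to 0.586 (with Whrn). Of all 13221 genes, the 3 most like Pcdh15 were Popdc3 (r = 0.989, and 0.982 without the 2 most extreme samples), Serf1 (0.985 and 0.972) and Mtmr11 (0.981 and 0.955). Those most like Lhfpl5 were Txnip (0.981 and 0.933), Liph (0.979 and 0.957) and Cops7b (0.979 and 0.942), and those most like Tmc1 Tmem19 (0.974 and 0.876), Stk35os1 (0.969 and 0.921) and Copg2 (0.955 and 0.908). The highest of 13221 correlations over 8 samples are high by selection, and these samples share mouse and region.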

How the data were processed

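The deposited values are 1 linear intensity per probe set, MAS5 signals that the authors scaled to a trimmed mean of 500 per array (2% off each end, as the values show); MAS5 and affy 1.26 are named in the submitters' processing notes. Detection calls were not used here. Values were log2 transformed with no pseudocount. A gene was read from its probe set of highest mean among those annotated to it alone (18193 genes), and genes whose mean lay below the array's 40th percentile were not tested. limma 3.58.1 (R 4.3.3) was fitted across all 13221 genes to 4 group means, with an intensity trend (4 residual degrees of freedom), and for the genotype over both regions to means per mouse. P-values are two-sided and Benjamini-Hochberg adjusted over all genes. "At least" folds raise values under the filter to it.

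The labels tie each replicate to 1 mouse, and equal numbers were presumed to mark the same mouse in apex and base; their deviations from the group means correlated at r = 0.339 in controls and 0.0683 in cKO. Lists and named genes (all 9, and up to 4 partners of smallest p per comparison) were chosen with earlier results of these data known. The fit was tested on simulated data with known changes. A log2 change of 1 was recovered for 46.2% of changed genes for base minus apex over both genotypes. For the genotype it was recovered for 7.83% in the apex and 3.17% in the base, and for the difference of genotype effects for 0%. A log2 change of 2 was recovered for 84.8%, 73.2%, 72.8% and 44.2%, in the same order. Most changes of 1 between genotypes would thus be missed. Alternatives covered the filter, scaling, probe set choice, trend, blocks and each left-out sample. With 2 samples per group, p-values reflect the spread of few animals.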

Additional observations from a re-analysis of the deposited data

Results flagged for a closer look

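For Pcdh15 and Adgrv1 a difference changed sign between groups, by sample for Pcdh15 and only by presumed mouse for Adgrv1. Tmc2 also changed sign in every sample, with all its signals under the filter. The share of all genes with such a change is not given here. For Pcdh15, both cKO samples were above both controls in the apex and below both in the base; the difference of the genotype effects was -0.91 ± 0.35 (log2, SE), which did not pass after adjustment (adjusted p = 1, limma). For Adgrv1, control apex and base signals overlapped, but the base exceeded the apex in both presumed control mice (0.06 and 0.05). The base lay below the apex in both presumed cKO mice (-0.92 and -0.33). The difference of those steps was -0.68 ± 0.61 (adjusted p = 1, limma), and the control steps are close to 0.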

How the results depend on the processing

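The number of tip link and transduction genes past the threshold, 0 in each of the 7 comparisons, moved in 3. For base minus apex over both genotypes it was 1 with low values raised to the filter, 1 with the mouse as a fixed replicate block, 2 with it as a random block, 1 with the replicate number as a block, and 0 to 3 when samples were left out in turn. In the cKO it was 2 when only the compared groups were fitted and 0 to 2 when samples were left out, and in controls 0 to 1. The block changed no other count of these genes. Among all genes, the count over both genotypes was 157 and became 100 with the mean of probe sets (3 of the 9 genes then tested), 70 without the trend, 255, 527 and 249 with the 3 blocks, and 0 to 1518 with samples left out. In the cKO it was 11 and became 0 with no filter, quantile normalization, centring, every probe set, no trend, or the fixed or number block, 6 with the mean of probe sets, 81 with the random block, 449 with the compared groups alone and 0 to 316 with samples left out. Elsewhere the count of 0 became 1 without the trend (apex and base genotype comparisons), up to 37 without control base replicate 2 in the base, up to 551 without control base replicate 1 for base minus apex in controls, and up to 9 for the genotype over both regions. Of 1057 values of single genes under alternatives, 989 kept their direction and side of the threshold, 15 passed with the same direction and 53 changed sign. Signs changed for Clrn1 in the apex with quantile normalization (0.07) and centring (0.02), for Cdh23 from base to apex in controls with quantile normalization (0.21) and raised low values (0.01), for Cdh23 over both genotypes with quantile normalization (0.24), centring (0.01) and raised low values (0.07), and for Tmc1 in the difference of genotype effects with raised low values (0.11). With samples left out, ranges that crossed 0 were as follows. In the apex, cKO minus control was -0.15 to 0.32 for Cdh23, -0.01 to 0.52 for Lhfpl5 and -0.18 to 0.14 for Clrn1. In the base it was -0.28 to 0.62 for Cdh23, -0.29 to 0.31 for Ush1c, -0.70 to 1.15 for Clrn1 and -0.36 to 0.53 for Adgrv1. Base minus apex in controls was -0.32 to 0.20 for Cdh23, -0.28 to 0.35 for Whrn, -1.76 to 0.10 for Clrn1 and -0.39 to 0.51 for Adgrv1. For Cdh23 it was -0.43 to 0.48 in the cKO and -0.24 to 0.21 over both genotypes. The difference of genotype effects was -0.37 to 0.54 for Cdh23 and -0.68 to 1.18 for Clrn1. Over both regions, cKO minus control was -0.09 to 0.34 for Cdh23, -0.56 to 0.04 for Lhfpl5, -0.04 to 0.49 for Ush1c, -0.36 to 0.11 for Whrn, -0.28 to 0.49 for Clrn1 and -0.02 to 0.87 for Adgrv1. The cause of these changes was not tested. With 2 arrays per group, small differences are not resolved, and signals near the filter (Cdh23, Tmc1 in cKO base) or under it (Tmc2) set no size.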

Other observations

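Relatives of the channel genes lay on both sides of 0 from apex to base. Of 12 relatives of Tmc1, Lhfpl5 and clarin 1, 9 had a probe set of their own and 6 were tested, and 0 passed in any comparison. Base minus apex over both genotypes was 0.53 ± 0.17 for Tmc6 (adjusted p = 0.194, limma), with every basal sample above every apical one (8.88, 9.56, 9.26 and 9.28 against 8.64, 8.84, 8.65 and 8.73, log2). It was 0.21 ± 0.30 for Tmc4, -0.15 ± 0.15 for Tmc7, 0.05 ± 0.14 for Lhfpl2, -0.51 ± 0.50 for Lhfpl3 and -0.34 ± 0.47 for Lhfpl4. Between genotypes in the base, Tmc7 gave 0.58 ± 0.21 (adjusted p = 1, limma), with 8.56 and 8.50 in the cKO against 7.88 and 8.02. The low values of Lhfpl3 (9.08) and Lhfpl4 (8.54) were both in control base replicate 2, the sample that was also lowest for Clrn1. Whether these relatives differ from Tmc1 and Lhfpl5 was not tested.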
